A study of Homo sapiens with 4 samples.

Results

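The genes described here were SREBF2, which encodes the transcription factor SREBP2, its regulator INSIG1, and 8 enzymes of cholesterol synthesis, HMGCS1, IDI1, SQLE, LSS, MSMO1, NSDHL, SC5D and DHCR7. Every probe set whose platform annotation names a single gene, that gene being one of the 10, was taken, without use of its values. This gave 25 probe sets for 10 of 10 genes, of 41920 probe sets and 18304 genes tested. They were measured in U87, an established human glioma cell line, with QK (the gene QKI, an RNA-binding protein) knocked down in all samples. In the 2 samples labelled miR-20a the cells had been transduced with that microRNA, and in the 2 labelled miR-NT with a scrambled microRNA that targets nothing by design. The labels give no dose, time after transduction or clone. They do not say whether arrays of a group stand for separate cultures either. The p-values and SEs therefore reflect the spread between these samples alone, which may be technical. In both, the spread of each probe set is drawn towards that of all probe sets. Total RNA, 6 µg per sample, was made into biotin-labelled cRNA and read on 1 single-colour Affymetrix array each, and a value is the log2 level of a probe set on an array. The comparison asks which members differed when miR-20a was added to QK-depleted cells.

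SREBP2 switches on cholesterol synthesis when sterols run low. It is held in the endoplasmic reticulum with its escort SCAP. INSIG1 retains that complex while sterols are plentiful, and on release the factor is cut by the proteases encoded by MBTPS1 and MBTPS2 and enters the nucleus. Its targets include nearly every enzyme from acetyl-CoA to cholesterol, and INSIG1 itself, which closes a feedback loop. In the brain cholesterol is made locally, since lipoproteins of the blood hardly cross the blood-brain barrier.

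The microRNA miR-20a belongs to the miR-17 family, and its arm hsa-miR-20a-5p pairs with target transcripts mainly through the seed. The mature sequence is shown because it is the treatment, with the seed, bases 2 to 8, in capitals (RefSeq, GRCh38.p14, chr13:91351072-91351094, plus strand).
hsa-miR-20a-5p: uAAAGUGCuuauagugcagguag

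The regulatory sequence of the 3 members with the largest differences between the groups is shown next. Each run is the 250 bases before the gene's start in RefSeq (GRCh38.p14), 5′ to 3′ on the gene's strand. For SREBF2 it is chr22:41832855-41833104, for SC5D chr11:121292521-121292770, the first of 2 windows in the table, and for MSMO1 chr4:165327419-165327668, all on the plus strand. Capitals mark matches, on either strand, to the sterol regulatory element TCACNCCAC that SREBP binds, to the E box CACGTG, and to the CCAAT box of NF-Y, a factor that works beside SREBP.
SREBF2: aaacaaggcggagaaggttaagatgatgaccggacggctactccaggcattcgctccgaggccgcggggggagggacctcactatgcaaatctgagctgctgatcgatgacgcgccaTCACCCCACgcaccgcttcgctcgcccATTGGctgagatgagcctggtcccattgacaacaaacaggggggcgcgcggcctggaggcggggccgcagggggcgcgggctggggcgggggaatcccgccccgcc
SC5D: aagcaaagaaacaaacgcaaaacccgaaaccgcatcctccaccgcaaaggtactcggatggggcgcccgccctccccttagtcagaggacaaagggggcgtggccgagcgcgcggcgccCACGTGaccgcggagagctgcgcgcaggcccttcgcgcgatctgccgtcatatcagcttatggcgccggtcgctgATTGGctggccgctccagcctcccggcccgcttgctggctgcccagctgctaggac
MSMO1: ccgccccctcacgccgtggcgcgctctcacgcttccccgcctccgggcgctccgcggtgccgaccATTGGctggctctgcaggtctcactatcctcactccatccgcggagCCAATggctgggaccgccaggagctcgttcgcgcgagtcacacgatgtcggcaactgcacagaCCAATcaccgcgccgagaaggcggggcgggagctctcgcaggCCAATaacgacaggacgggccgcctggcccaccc

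In SREBF2 the sterol element began 133 bases before the start and a CCAAT box, read on the opposite strand, 106 bases before it. SC5D held an E box beginning 131 bases before the start and 1 CCAAT box. MSMO1 held 4 CCAAT boxes, the nearest beginning 34 bases before the start. RefSeq windows of 300 bases, from 250 before to 50 after the start, were matched for 9 of the 10 genes, all but SQLE. The 9 genes had 14 windows. The CCAAT box was found in 11 of the 14, at least 1 for each gene, against 34.6% of all 35116 promoter windows. The sterol element was found in 1 of the 14, that of SREBF2, against 1.13% of all windows, and the E box in 4, against 7.26%. The Sp1 box GGGCGG was found in 12 of the 14 windows, against 45.0% of all. Windows of a gene can overlap. The marked matches do not overlap one another, and a match is a description of letters and not a bound site. Only the letters given were sought, so a window without a match is not shown to lack such an element.

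QKI, the gene knocked down in every sample, read 9.18 and 9.38 log2 units in miR-NT cells and 9.53 and 9.38 in miR-20a cells by its highest probe set. That difference of 0.18, with overlapping groups, was the highest among the 10 probe sets of QKI. Their changes ran from -0.43 to 0.18, with a median of -0.10, at mean levels from 4.37 to 9.37. In 4 of the 10 the groups did not overlap, all lower with miR-20a. At an unadjusted p under 0.05, 2 were lower and 0 higher (limma), and the smallest limma adjusted p was 0.168. Cells with normal QKI were not analysed here, so these values do not check the knockdown. The arrays had medians of 6.97 to 7.01 log2 units and correlated at 0.9908 to 0.9935 across the groups, against 0.9961 within miR-NT and 0.9946 within miR-20a. Of the labelled line's markers, VIM was at 14.68 and 14.66 log2 units in miR-NT and miR-20a cells and CD44 at 12.45 and 12.64. The astrocyte markers GFAP, at 7.11 and 7.13, and S100B, at 4.90 and 4.92 by their highest probe sets, lay near or under the array median, and without detection calls they cannot be told from background. Across the 40 probe sets of the 10 glioma markers the groups did not overlap in 17 that were lower and 3 that were higher with miR-20a, and the median change was -0.11. Over all probe sets 27.2% were lower and 21.7% higher without overlap, and the median change was -0.02. CHI3L1 fell by 1.12 and 1.14 on the log2 scale by 2 of its 3 probe sets (limma adjusted p = 0.0243 and 0.0246), the 2 that passed among these 40. Of all probe sets 0.136% passed. By their highest probe sets FN1 had a change of -0.26, SOX2 of -0.25 and NES of -0.21. The summed linear level of the 10 markers was 128800 to 133100 on the miR-NT arrays and 108600 to 113800 on the miR-20a arrays. This sum rests mostly on the highest-reading probe sets, those of VIM, FN1, CHI3L1 and CD44, and does not describe the 10 markers evenly. Those sums were 555.7 to 565.3 and 524.9 to 545.2 for 5 of 5 epithelial markers, 487.9 to 517.6 and 434.4 to 501.4 for 3 of 4 blood markers, 1142 to 1159 and 1074 to 1078 for 4 of 4 endothelial markers, and 519.9 to 544.1 and 487.9 to 536.8 for 3 of 3 hepatocyte markers. The part of these markers in the results was not tested. In RNA from whole cultures, fewer cells with a transcript and less of it per cell cannot be told apart.

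No member probe set passed the test, a limma adjusted p under 0.05 (Benjamini-Hochberg over all probe sets, two-sided). Of all 41920 probe sets 0.136% passed, 0.119% as higher and 0.0167% as lower with miR-20a. The smallest adjusted p among the members was 0.136, that of SC5D. At an unadjusted p under 0.05, 4 of the 25 member probe sets were higher, those of SC5D, MSMO1, SQLE and INSIG1, and 3 were lower, 2 of SREBF2 and 1 of LSS (limma). These are 16% and 12% of the member probe sets. Over all probe sets 17.9% lay under that p, 9.46% higher and 8.4% lower. The members' changes lay between -0.37 and 0.43 log2 units. On simulated data this test called 0% of true changes of 0.5 log2 units, so a member that did not pass is not shown to be unchanged. For 1 probe set alone, exact permutation of 2 and 2 arrays gives no p below 0.333.

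The groups did not overlap in 14 of the 25 member probe sets, 9 (36%) with both miR-20a arrays higher and 5 (20%) with both lower. Over all probe sets they did not overlap in 48.9%, 21.7% higher and 27.2% lower. The median change of the member probe sets was 0.02 log2 units, against -0.02 over all probe sets. By each gene's highest probe set it was 0.15 over the 10 members and -0.01 over all 18304 genes. These are not alike in level, since the 10 probe sets read 9.06 log2 units or more. All of them lay in the top 20% by level, where all probe sets had a median change of 0.09. After quantile normalization or cyclic loess the median of the 25 member probe sets was -0.03, and after median centring it was 0.06. The median of the 10 was not taken under those scalings.

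**Figure D1:**
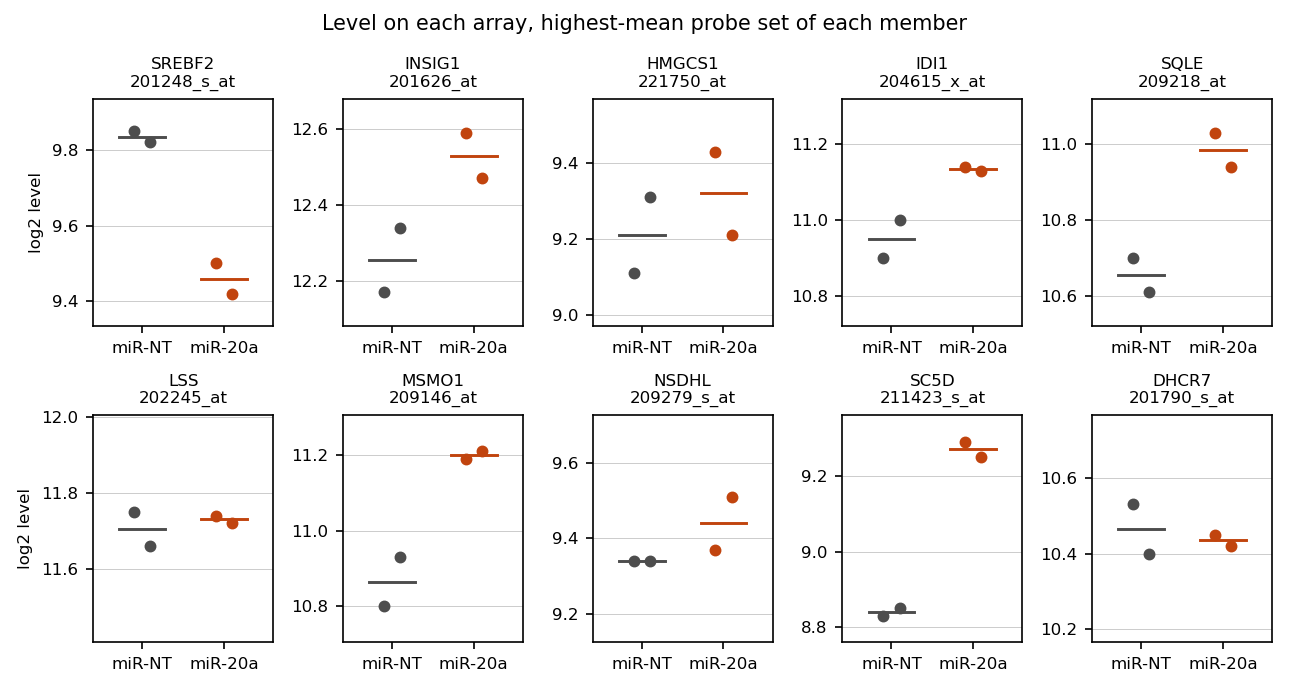
The log2 level (vertical axis, the same span in every panel) of each member's highest-mean probe set on the 4 arrays, 2 points per group, with the group mean as a line. SREBF2 sits at 9.50 and 9.42 on the miR-20a arrays, below 9.85 and 9.82 on the miR-NT arrays. SC5D, MSMO1, SQLE, INSIG1, IDI1 and NSDHL sit higher on both miR-20a arrays, and in HMGCS1, LSS and DHCR7 the groups overlap.

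SREBF2, the gene of the transcription factor itself, was at 9.85 and 9.82 log2 units in miR-NT cells and 9.50 and 9.42 in miR-20a cells by its highest probe set, 201248_s_at. Both miR-20a arrays lay below both miR-NT arrays. The difference was -0.37 ± 0.09 (SE, n = 2 each), 1.30-fold lower, and did not pass (limma adjusted p = 0.146). The probe set 242748_at read 8.81 and 8.89 in miR-NT cells and 8.47 and 8.54 in miR-20a cells, again with no overlap. Its difference was -0.35 ± 0.09 (SE, limma adjusted p = 0.158). The third probe set, 201247_at, gave 9.55 and 9.58 against 9.54 and 9.57, a difference of -0.01 with a 95% interval from -0.22 to 0.20, and its groups overlapped. The 3 probe sets of SREBF2 thus did not give the same size of difference, although none had a higher mean in miR-20a cells under the deposited scaling. After median centring 201247_at was at 0.02.

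INSIG1, the sterol-sensing anchor that is also an SREBP2 target, gave differences of either sign by probe set. The probe set 201626_at was at 12.17 and 12.34 log2 units in miR-NT cells and 12.59 and 12.47 in miR-20a cells. These groups did not overlap, and the difference was 0.28 ± 0.10 (SE, limma adjusted p = 0.237). The probe set 201627_s_at read 12.27 and 12.26 against 12.40 and 12.32, a difference of 0.10 that turned to -0.03 after quantile normalization. In contrast 201625_s_at read 12.08 and 12.13 against 11.90 and 11.95, lower on both miR-20a arrays, with a difference of -0.18 ± 0.09 (SE, limma adjusted p = 0.333). The mean of the 3 probe sets had a difference of 0.07 ± 0.08 (SE).

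HMGCS1 makes HMG-CoA, the substrate of the step that commits carbon to the mevalonate pathway. Its probe set 221750_at was at 9.11 and 9.31 log2 units in miR-NT cells and 9.43 and 9.21 in miR-20a cells, so that the groups overlapped. The difference was 0.11 with a 95% interval from -0.17 to 0.39. The other probe set, 205822_s_at, was lower on both miR-20a arrays, at 9.06 and 9.11 against 9.17 and 9.24, a difference of -0.12 with an interval from -0.34 to 0.09. The mean of the pair had a difference of 0.00 ± 0.08 (SE).

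IDI1 converts isopentenyl to dimethylallyl diphosphate, the units from which isoprenoids are built. By 204615_x_at it was at 10.90 and 11.00 log2 units in miR-NT cells and 11.14 and 11.13 in miR-20a cells, with no overlap and a difference of 0.19 ± 0.09 (SE, limma adjusted p = 0.332). The probe set 208881_x_at gave 10.85 and 10.94 against 11.11 and 11.09, a difference of 0.20. All 3 probe sets of IDI1 carry the suffix _x_at, which marks probes able to match other transcripts too. The third, 242065_x_at, was at 7.74 and 7.67 against 7.60 and 7.70, overlapping, with a difference of -0.06.

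SQLE, squalene epoxidase, adds the oxygen to squalene and is a rate-limiting step after HMG-CoA reductase. By 209218_at it was at 10.70 and 10.61 log2 units in miR-NT cells and 11.03 and 10.94 in miR-20a cells. The groups did not overlap, and the difference was 0.33 ± 0.09 (SE), 1.26-fold, with a limma adjusted p of 0.173. The other 3 probe sets did not share it. The probe set 213577_at read 10.86 and 10.73 against 10.73 and 10.84, a difference of -0.01 with a 95% interval from -0.24 to 0.23. For 213562_s_at the difference was 0.01 and for 1557352_at -0.18, and in all 3 the groups overlapped. The miR-20a arrays of 1557352_at read 5.59 and 5.99, with an SD of 0.29.

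LSS, lanosterol synthase, closes the epoxide into the first sterol. Its highest probe set, 202245_at, read 11.75 and 11.66 log2 units in miR-NT cells and 11.74 and 11.72 in miR-20a cells. The difference was 0.02 with a 95% interval from -0.19 to 0.24, and it turned to -0.14 after quantile normalization. By 211019_s_at LSS was at 9.82 and 9.57 against 9.30 and 9.44, lower on both miR-20a arrays, with a difference of -0.33 ± 0.12 (SE, limma adjusted p = 0.224). It was -0.20 without miR-NT replicate 1 and -0.45 without miR-NT replicate 2. The third, 211018_at, was at 6.12 and 6.00 against 6.08 and 6.19, overlapping.

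The enzymes that trim lanosterol towards cholesterol held the largest positive difference among the members. SC5D, the lathosterol desaturase, was at 8.83 and 8.85 log2 units in miR-NT cells and 9.29 and 9.25 in miR-20a cells by 211423_s_at. Both miR-20a arrays lay above both miR-NT arrays, and the difference was 0.43 ± 0.09 (SE), 1.35-fold, with a limma adjusted p of 0.136. Its other probe set, 215064_at, read 6.51 and 6.38 against 6.29 and 6.43, overlapping, with a difference of -0.09 and a 95% interval from -0.33 to 0.15.

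MSMO1, the methylsterol oxidase that starts removal of the 4-methyl groups, has 1 probe set, at 10.80 and 10.93 log2 units in miR-NT cells and 11.19 and 11.21 in miR-20a cells. These did not overlap, and the difference was 0.34 ± 0.09 (SE), 1.26-fold, with a limma adjusted p of 0.169. NSDHL, the dehydrogenase that acts after MSMO1 on the same methyl groups, was at 9.34 and 9.34 against 9.37 and 9.51 by 209279_s_at, and at 8.34 and 8.50 against 8.63 and 8.54 by 215093_at. Both were higher on both miR-20a arrays, by 0.10 and 0.17, with 95% intervals from -0.12 to 0.33 and from -0.07 to 0.41.

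DHCR7, which makes cholesterol from 7-dehydrocholesterol as the last step of that branch, was at 10.53 and 10.40 log2 units in miR-NT cells and 10.45 and 10.42 in miR-20a cells by 201790_s_at. The second probe set, 201791_s_at, read 9.95 and 9.74 against 9.92 and 9.97. Both overlapped, with differences of -0.03 and 0.11 and 95% intervals from -0.26 to 0.19 and from -0.14 to 0.36. The sign of the first was lost after median centring, at 0.00, and that of the second turned after quantile normalization, to -0.01.

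**Figure D2:**
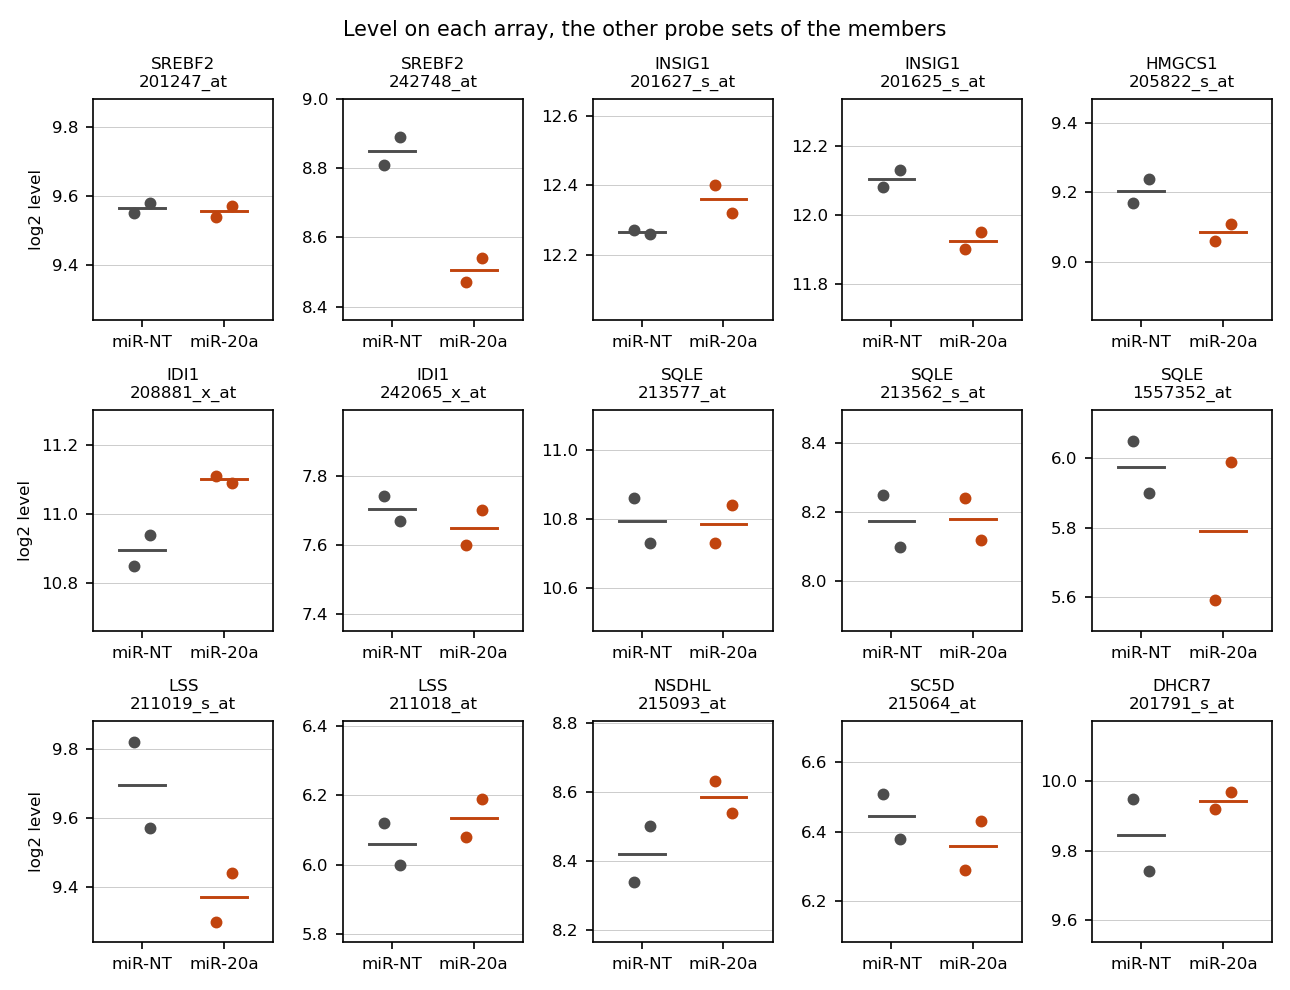
The log2 level (vertical axis, the same span in every panel) of the other 15 member probe sets on the 4 arrays, with group means as lines. The probe sets SREBF2 242748_at, LSS 211019_s_at, HMGCS1 205822_s_at and INSIG1 201625_s_at sit lower on both miR-20a arrays, while in 8 of the 15 the groups overlap.

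Agreement among probe sets of a gene was therefore limited. Of the 9 members with several probe sets, SREBF2 had all of them lower, NSDHL had all higher, and 7 had both signs. This counts signs whatever their size, and some rest on differences near 0 with overlapping groups. Such were SREBF2 201247_at at -0.01, LSS 202245_at at 0.02, DHCR7 201790_s_at at -0.03 and IDI1 242065_x_at at -0.06. Among the probe sets of these 9 members SC5D 215064_at had a mean level of 6.40 log2 units, LSS 211018_at of 6.10 and SQLE 1557352_at of 5.88. All of these lay under the array medians, and without detection calls they cannot be told from background. The split of SC5D rests on 215064_at. When the probe sets of each gene were averaged and the fit was run over genes, SREBF2 had a difference of -0.24 ± 0.07 (SE, limma adjusted p = 0.141) and MSMO1, with its 1 probe set, 0.34 ± 0.08 (adjusted p = 0.0986, limma). SC5D, with 215064_at in its average, then had 0.17 ± 0.07, and SQLE had 0.04 ± 0.08. The average of SQLE holds 1557352_at, but also 213577_at, at a mean level of 10.79 and a difference of -0.01, and 213562_s_at, at 8.18 and 0.01.

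**Figure D3:**
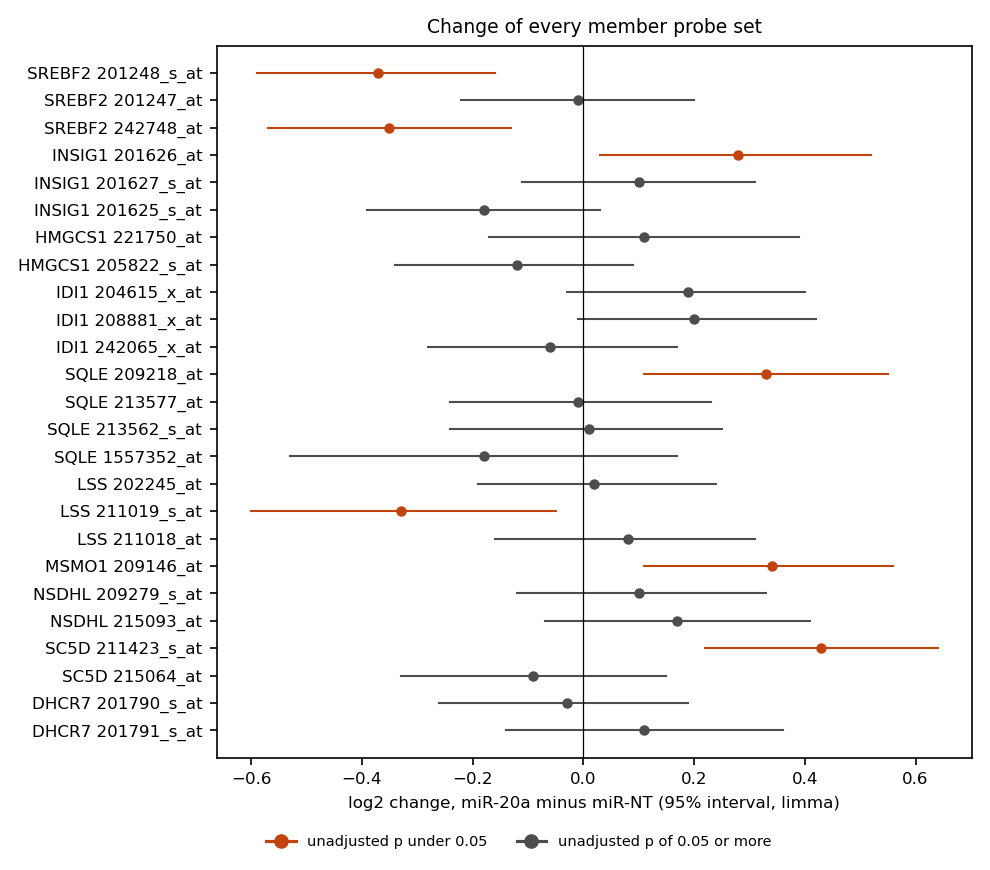
The log2 change (horizontal axis, miR-20a minus miR-NT) of each of the 25 member probe sets with its 95% interval from limma. The 7 probe sets with an unadjusted p under 0.05 are in orange, 4 to the right of 0 and 3 to the left, between -0.37 and 0.43.

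Most member probe sets read high on the scale, where all probe sets together had a positive median change. Of the 25, 19 lay in the top 20% by mean level, from 8.56 log2 units. All probe sets of that bin had a median change of 0.09, against -0.04 in the bottom 20%. Quantile normalization, which makes the arrays' distributions equal, took the median of the top bin to -0.01. It lowered the difference of SQLE 209218_at from 0.33 to 0.16, of MSMO1 from 0.34 to 0.16 and of INSIG1 201626_at from 0.28 to 0.14. It lowered IDI1 204615_x_at from 0.19 to 0.03 and 208881_x_at from 0.20 to 0.04. SC5D 211423_s_at was then at 0.35, while SREBF2 201248_s_at went to -0.48, 242748_at to -0.40 and LSS 211019_s_at to -0.43. INSIG1 201625_s_at went from -0.18 to -0.34 and was then the only probe set of INSIG1 at an unadjusted p under 0.05 (limma), as it was after cyclic loess, at -0.33. At an unadjusted p under 0.05, 1 member probe set was then higher and 4 were lower, in place of 4 and 3 (limma), and the same counts were found after cyclic loess. Other settings moved the counts the other way. After median centring 6 were higher and 3 lower (limma). With probe sets below the 40th percentile of level left out, 5 were higher and 3 lower (limma). Without miR-NT replicate 1 there were 2 higher and 2 lower.

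**Figure D4:**
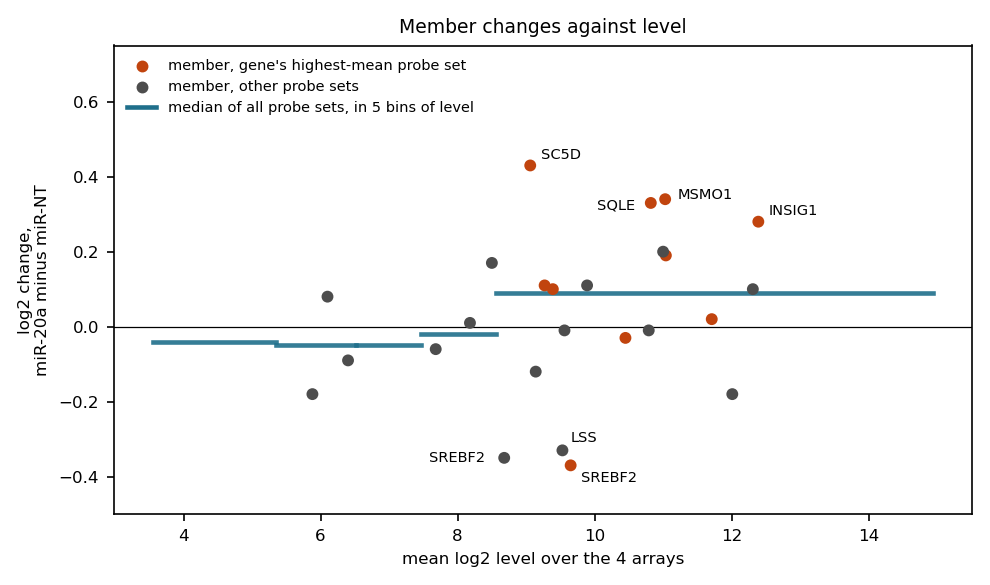
The log2 change of each member probe set (vertical axis) against its mean log2 level over the 4 arrays (horizontal axis), with the median change of all probe sets in 5 equal bins of level as blue lines. The blue line of the top bin lies at 0.09, under SC5D, MSMO1, SQLE and INSIG1 and above the labelled points of SREBF2 and LSS.

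A sign of RNA quality differed with the groups too. For ACTB the 3′ control probe set exceeded the 5′ one by 0.20 and 0.35 log2 units in miR-NT cells and by 0.52 and 0.46 in miR-20a cells. For GAPDH the excess was 0.22 on each miR-NT array, 0.27 on miR-20a replicate 1 and 0.28 on replicate 2. The groups did not overlap in either control, and the part of RNA quality in the differences between probe sets of a gene was not tested.

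The other genes of the pathway also went both ways, and none of their 26 probe sets passed the test. At an unadjusted p under 0.05, 2 were higher and 4 lower (limma). Over all probe sets 9.46% were higher and 8.4% lower at that p, and 0.136% passed the test. Of 13 other sterol synthesis enzymes 9 were measured, by 14 probe sets with a median change of -0.03. TM7SF2, a sterol reductase acting after lanosterol, was at 9.18 and 9.21 log2 units in miR-NT cells and 8.86 and 8.79 in miR-20a cells, a difference of -0.37 ± 0.09 (SE, limma adjusted p = 0.148). MVD, mevalonate diphosphate decarboxylase, was at 8.72 and 8.49 against 8.27 and 8.33, a difference of -0.30 ± 0.11 (SE, limma adjusted p = 0.23). It was -0.18 without miR-NT replicate 1 and -0.41 without miR-NT replicate 2. MVK, mevalonate kinase, had a difference of -0.14 and HSD17B7, a sterol ketone reductase, 0.13. EBP, the sterol isomerase, which was singled out after its values were seen, had -0.06 by its highest probe set, with overlapping groups. Its other probe sets gave -0.38 by 213789_at, 0.28 by 202735_at and 0.34 by the fourth, and the first of these was -0.22 without miR-20a replicate 1.

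The 5 genes of SREBP1 and of SREBP processing, all measured, held the largest difference in either direction among members and pathway genes. SREBF1, the gene of the related factor that favours fatty acid synthesis, was at 9.07 and 9.09 log2 units in miR-NT cells and 8.32 and 8.54 in miR-20a cells. The difference was -0.65 ± 0.10 (SE), 1.57-fold lower, with a limma adjusted p of 0.108, and its other probe set had -0.07. MBTPS2, the site-2 protease, was at 8.45 and 8.52 against 9.05 and 8.85, a difference of 0.46 ± 0.10 (SE, limma adjusted p = 0.139), with 0.11 and 0.01 by its other probe sets. The SREBF1 probe set at -0.07 had a mean level of 6.85 log2 units and the MBTPS2 probe set at 0.01 of 4.46. Both lay under the array medians, and without detection calls they cannot be told from background. INSIG2, a relative of INSIG1, had 0.36, its miR-20a arrays lying at 7.49 and 7.06, and this was 0.15 without miR-20a replicate 1 and 0.58 without replicate 2. SCAP had -0.11, or -0.04 without miR-NT replicate 1 and -0.19 without miR-NT replicate 2. Of 4 other SREBP2 targets 2 were measured, NPC1, which moves cholesterol out of lysosomes, at -0.14, and STARD4, a cytosolic sterol carrier, at 0.09. NPC1 was at -0.05 without miR-NT replicate 1 and -0.22 without miR-NT replicate 2. STARD4 turned to -0.04 without miR-20a replicate 1 and was 0.23 without miR-20a replicate 2. Quantile normalization took NPC1 to -0.30, MVK to -0.29, SCAP to -0.21, HSD17B7 to 0.04 and EBP 202735_at to 0.15.

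**Figure D5:**
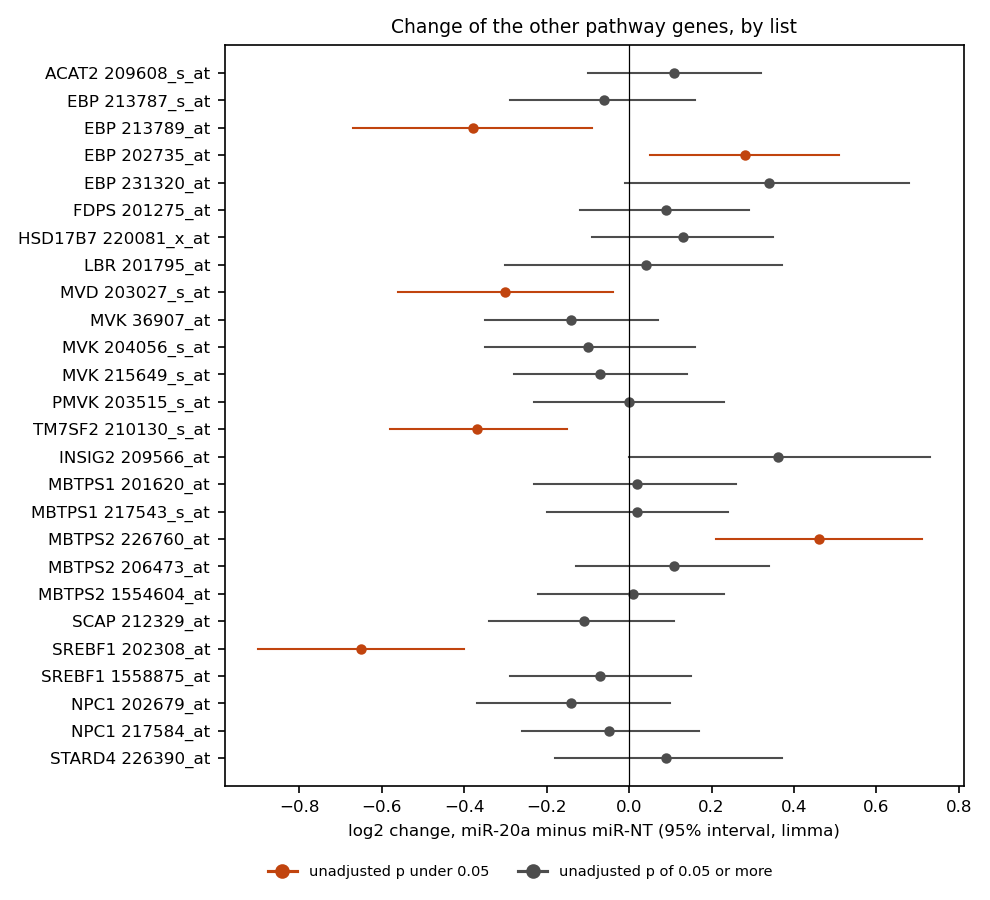
The log2 change (horizontal axis, miR-20a minus miR-NT) of the 26 probe sets of other pathway genes with 95% intervals from limma, in the order other sterol synthesis enzymes, SREBP processing, other SREBP2 targets. SREBF1 202308_at lies farthest to the left, at -0.65, and MBTPS2 226760_at farthest to the right, at 0.46.

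The probe sets whose 4 centred values lay nearest to those of SREBF2 201248_s_at, by Euclidean distance over the 4 arrays, named RASAL3, GRSF1 and MDK, at distances of 0.00518, 0.00839 and 0.0199 log2 units. Their differences were -0.37, -0.38 and -0.36. They were picked for nearness among all single-gene probe sets, so the small distances and like differences follow from the choice. After quantile normalization SREBF2 201248_s_at was at -0.48, RASAL3 at -0.39, GRSF1 at -0.34 and MDK at -0.32. The probe set of GRSF1 had a mean level of 6.46 log2 units, under the array medians.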

How the data were processed

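The deposited values were log2 probe-set levels of 41930 probe sets on 4 arrays. The package affy is named, without a version, in the submitters' processing notes. The handling of background, normalization and summarization is not given in the sources used here. From the range of the values the log base is 2. There are no detection calls, and precision is limited by having 4 arrays. Probe sets were named through the platform annotation of GEO, in which 37465 name 1 gene, 1727 several and 2728 none. The 10 control probe sets were left out, and the other 41920 were fitted together by lmFit and eBayes of limma 3.58.1 (R 4.3.3), with an intercept and the group and no filter. In simulated data with 200 changed probe sets, this fit called 0% of changes of 0.5 log2 units, 85% of changes of 1 and 98% of changes of 1.5. SEs, 95% intervals and p-values use the moderated variance of eBayes, which draws that of each probe set towards a common value. Its prior SD was 0.103 log2 units, with 4.6 prior degrees of freedom. A printed SE is thus not the replicate spread of that probe set alone. All p-values are two-sided, with Benjamini-Hochberg adjustment over all probe sets and a threshold of 0.05. Every probe set of a member was described. Array values were given for each gene's highest-mean probe set and any member probe set with an unadjusted p under 0.05. Of other lists, up to 4 genes with the smallest p were named, and the 3 genes nearest to SREBF2. Genes, lists and tests were chosen with earlier results of these data known. Alternatives were a replicate block, other scalings, a low-level filter, a trend and robust fit, joined probe sets, another threshold and each array left out.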

Additional observations from a re-analysis of the deposited data

Results flagged for a closer look

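Outside the members, the 3′ control probe set of ACTB exceeded the 5′ one by 0.49 log2 units on average in miR-20a cells and by 0.27 in miR-NT cells. Groups of 2 arrays do not allow a search for an array that stands apart from its group.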

How the results depend on the processing

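The smallest change among the 57 probe sets that passed was 0.78 log2 units in size, above that of any member, so the 0 member probe sets past an adjusted p of 0.05, the count also at a threshold of 0.1 and in the other settings but 1, says nothing of stability. With a trend and robust fit 2 members passed, SREBF2 201248_s_at (limma adjusted p = 0.0453) and SC5D 211423_s_at (0.0363). Over all settings their adjusted p-values ran to 0.638. Of all probe sets 57 passed as reported, 334 with those below the 40th percentile of level left out, 957 with the trend and robust fit, 153 genes with probe sets averaged, and 0 to 66 with 1 array left out (0 without miR-NT replicate 1 or 2, 16 without miR-20a replicate 1). With the replicate block 0 of all probe sets passed and 5 of the 25 members were at an unadjusted p under 0.05. The replicate numbers do not pair the samples by the labels, and deviations of same-numbered arrays correlated at -0.121. With the numbers crossed, a setting chosen after seeing the data, 0 of all and 0 of the member probe sets passed, and 7 members were at an unadjusted p under 0.05. Those 7 became 2 of 10 genes with probe sets averaged, and 4 to 8 with 1 array left out. The 6 pathway probe sets at that level became 3 to 6 with 1 array left out. With the trend and robust fit 6 member probe sets were higher and 4 lower at that level (limma). The members' median of 0.02 became -0.03 after quantile normalization and after cyclic loess and 0.15 with 1 probe set per gene. It was 0.06 after median centring and with low probe sets left out, and it lay between 0.00 and 0.07 with 1 array left out. Of the 25 member probe sets, 17 kept their sign under every setting and 8 did not, all 8 with a change no farther than 0.18 from 0 under the deposited scaling. After quantile normalization these were INSIG1 201627_s_at at -0.03, SQLE 213562_s_at at -0.01, LSS 202245_at at -0.14 and DHCR7 201791_s_at at -0.01. After cyclic loess they were INSIG1 201627_s_at at -0.05, LSS 202245_at at -0.12 and DHCR7 201791_s_at at -0.01, and after median centring SREBF2 201247_at at 0.02, SQLE 213577_at at 0.02 and DHCR7 201790_s_at at 0.00. The cause was not tested. With 1 array left out, SREBF2 201247_at ranged from -0.03 to 0.01, SQLE 213577_at from -0.07 to 0.05, SQLE 213562_s_at from -0.07 to 0.09, SQLE 1557352_at from -0.38 to 0.02, LSS 202245_at from -0.02 to 0.07, DHCR7 201790_s_at from -0.10 to 0.04 and STARD4 from -0.04 to 0.23. SREBF1 202308_at passed with low probe sets left out (limma adjusted p = 0.0424) and with the trend and robust fit (0.0255). The lone array of a group reduced to 1 was assumed to vary like the other group.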
